A study of Mus musculus with 7899 samples.

Results

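Ins1, Ins2, Iapp, Pcsk1, Pcsk2, Cpe and Pam make the hormones of the β cell and the enzymes that turn their precursors into secreted peptides. They were taken by gene symbol from every deposited table of read counts, and all 7 were found among the 21767 genes of the largest tables. The insulin genes were read as a share of all reads, and the other 5 genes relative to the reads outside Ins1 and Ins2. A gene that falls in the second measure therefore cannot do so only because insulin reads rose.

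The series holds single pancreatic cells of female C57BL/6J mice, labelled as β cells and sequenced in plates by Smart-seq3xpress, which yields full-length cDNA. Islets had been freed with collagenase, picked by hand and dissociated with trypsin, and cells were sorted by flow cytometry. The study's title places the metabolic enzyme ACSS2 in the adaptation of maternal β cells and in gestational diabetes. In all, 7897 cells fell into 100 libraries, each a group and replicate number, and 48 groups in 7 tables, of which 44 groups had 2 libraries and 4 had 3.

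The time course held mice on standard diet with no genotype label at 16 stages, 10 of them in gestation. These ran from gestation day 0 (G0) over early days (G3.5, G5.5, G6.5), middle days (G8.5, G10.5, G12.5) and late days (G14.5, G16.5, then G18.5) to days 2, 7 and 14 after birth (P2, P7, P14). Postpartum groups carry L or NL in their names, taken here to mean lactating or nonlactating mothers, since no label explains the letters. Acss2 knockouts and their wild types, and Stat3 knockouts and theirs, were on standard diet at G0, G14.5 and G18.5, and p300 knockouts (gene Ep300) and their wild types at G0 and G14.5. The labels used here give neither the alleles nor the cells in which a gene was deleted. The diet table held high-fat-diet mice without a genotype label at G0, G14.5 and P7NL, high-fat-diet Acss2 knockouts and wild types at G0 and G14.5, and standard-diet Acss2 wild types at G14.5. The last 2 tables held islets of standard-diet mice kept for 4 days in medium with 20% human maternal serum (MS) or human normal serum (NS). One set received 5 µM A485, an inhibitor of the histone acetyltransferases p300 and CBP, and the other 20 µM nifuroxazide, which inhibits STAT3 signalling, each with its own DMSO vehicle.

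Insulin is translated as a longer precursor that enters the endoplasmic reticulum, folds and is packed into granules. There the convertases PCSK1 and PCSK2 cut behind pairs of basic residues, and carboxypeptidase E, the product of Cpe, trims the exposed residues. Islet amyloid polypeptide (amylin, from Iapp) is stored and cut in the same granules, and PAM, peptidylglycine α-amidating monooxygenase, then converts its terminal glycine into an amide. Mice carry a pair of insulin genes, of which Ins2 is the counterpart of the single human gene.

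The stretches that the convertases cut show what the enzymes below act on. Each is 30 bases of coding sequence of GENCODE vM21 on GRCm38, with the codon pair for 2 basic residues in capitals.
Ins1 codons 55 and 56: acacccaagtccCGCCGTgaagtggaggac
Ins1 codons 86 and 87: gtggcccggcagAAGCGTggcattgtggat
Ins2 codons 55 and 56: acacccatgtccCGCCGTgaagtggaggac
Ins2 codons 88 and 89: gtggcccagcagAAGCGTggcattgtagat
Iapp codons 36 and 37: cctcagatggacAAACGGaagtgcaacacg
Iapp codons 76 and 77: aatacatatggcAAGAGGaatgcggcaggg
The first insulin site has the same capitals in both genes, and so has the second. In Iapp the codon just before the second pair, ggc, is the glycine that PAM uses.

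In GRCm38, Ins1 lies on chromosome 19 from 52264297 to 52265476 (plus strand), Ins2 on chromosome 7 from 142678656 to 142743381 (minus strand) and Iapp on chromosome 6 from 142298423 to 142303961 (plus strand). Pcsk1 lies on chromosome 13 from 75089826 to 75134861 (plus strand) and Pcsk2 on chromosome 2 from 143546156 to 143816285 (plus strand). Cpe lies on chromosome 8 from 64592542 to 64693054 and Pam on chromosome 1 from 97795114 to 98095646, both on the minus strand. Ins1 and Ins2 share 50 windows of 30 bases (4.84% of those in Ins1), 7 windows of 50 bases (0.691%) and 0 windows of 75 bases. Only exact matches were counted, and assignment of reads to the wrong gene was not tested. Pcsk2 overlaps exons of the antisense genes Pcsk2os1 and Pcsk2os2, and Pam those of B230216N24Rik. The strand setting of the counting is not stated in the sources.

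Library depth ran from 13273435 to 181405413 reads over 21 to 160 cells. Markers of the β cell, summed without Ins1 and Ins2 but with Iapp, were present in every library. Sums without any of the 7 genes were made for the diet and culture libraries only, and the markers were present in all of these. Levels outside insulin are given as CPM, counts per 1000000 reads outside Ins1 and Ins2. Summed α-cell markers ran from 359.88 to 18464 CPM (median 3605), and the highest value was in high-fat-diet G14.5 replicate 3. Summed δ-cell markers ran from 25.6 to 9428 (median 384). Endothelial markers reached 16.1, stromal markers 7.50, acinar markers 278, immune markers 388 and ductal markers 1685 CPM at most. Of the cells, 43 had over 5% of their non-insulin reads in other islet hormones, and each result was also computed without them. Of 40 calls among 448 member tests, 27 ended when each cell was weighted equally instead of by its reads, 34 ended without at least 1 library, and 0 reversed. The equal weighting was tested with limma on log2 means instead of edgeR, here and below, and its adjusted p-values are limma's. Weighting and test changed together, so a call that ended there cannot be put down to the weighting alone. In the test over the 16 stages this fit gave F of 0.0102 for Ins1, 0.00161 for Ins2 and 0.112 for Iapp. The main fit gave 1.467, 1.355 and 3.53. Values so far below 1 mean that the limma fit set the spread of these genes too high to call most changes. An ended call of Ins1, Ins2 or Iapp there therefore says little about the change. In sums over cells, fewer cells of a type and less RNA per cell cannot be told apart. Nothing in the labels says that replicates numbered 3, or the libraries of the cultures, came from separate animals, so p-values measure the spread between these libraries only.

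In the time course the insulin genes were the most abundant of the 7 and no stage was called for either, while Pcsk1 was called higher at 7 stages. Scaled by the deposited gene length, the median over 35 libraries was 637160 of every 1000000 length-scaled reads for Ins2, 148950 for Ins1 and 43271 for Iapp. These values depend on the gene lengths given with the counts. The enzymes were far lower on the same scale, at 699 for Cpe, 423 for Pcsk2, 98.8 for Pcsk1 and 37.6 for Pam. This order set the hormones above the enzymes, and the carboxypeptidase and Pcsk2 above Pcsk1.

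Ins1, the smaller of the insulin genes in reads, took 16.3% and 17.7% of all reads at G0. It took 18.3%, 15.7% and 16.9% at G14.5, 16.52%, 18.4% and 15.1% at G18.5, and 13.8% and 13.98% at P14NL. The 35 libraries ran from 12.95% to 18.6% with a median of 16.6%, and the G14.5 libraries lay on both sides of the G0 pair. Ins2 took 42.3% and 42.6% at G0, 40.7%, 42.02% and 44.6% at G14.5, and 38.7%, 32.97% and 39.2% at P14L. Over all libraries it ran from 32.97% to 44.6% with a median of 40.4%, and again G14.5 lay on both sides of G0. Together the insulin genes took 46.3% to 61.5% of the reads, the lowest in G6.5 replicate 2 and in P14L replicate 2 (47.6%). No stage differed from G0 in Ins1 or Ins2 by edgeR's quasi-likelihood test (0 of 30 tests, with 2 at an unadjusted p under 0.05), beside 2.21% of all genes over the 15 stages. DESeq2, with its own size factors instead of total reads, also called 0. Without G6.5 replicate 1, however, which left 1 library at that stage, Ins1 and Ins2 were lower at G6.5 by log2 fold changes of -0.39 and -0.35. A test for any difference among the 16 stages gave edgeR adjusted p = 0.353 for Ins1 and 0.407 for Ins2, where 11.6% of genes passed. Without G6.5 replicate 1 the F of Ins1 in this test went from 1.467 to 3.095, and Ins1 was called.

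**Figure D1:**
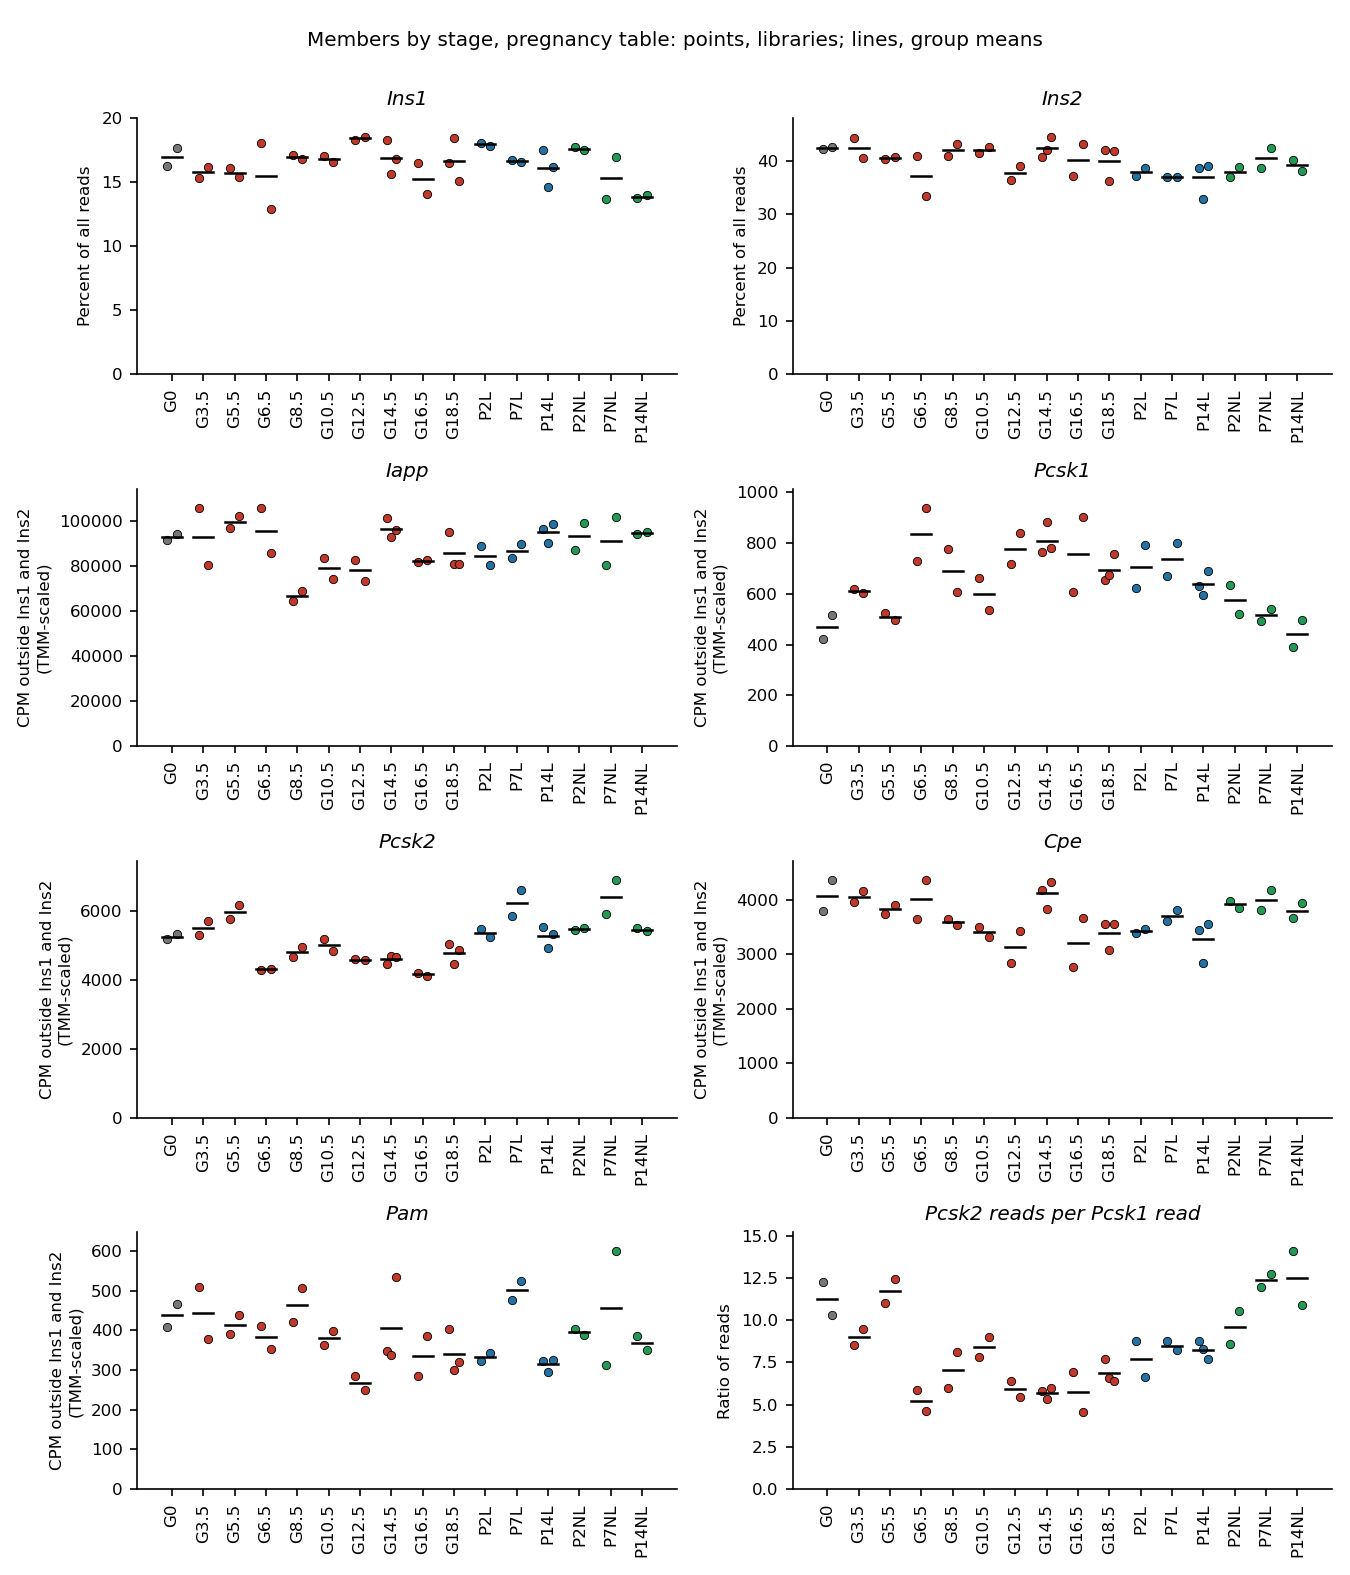
Level of each gene in the 35 libraries of the time course, by stage from G0 to P14; Ins1 and Ins2 in percent of all reads, the other 5 in CPM outside Ins1 and Ins2, and the last panel in Pcsk2 reads per Pcsk1 read. Points are libraries (grey G0, red gestation, blue L, green NL) and lines are group means; Pcsk1 rises above its G0 pair (421 and 517) to between 765 and 884 at G14.5, while the insulin genes lie on both sides of their G0 pair there.

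Iapp, the amylin gene, was lower at G8.5 than at G0 and otherwise not called at any stage. Its level, in CPM after TMM scaling (the unit of every further level of the 5 genes), was 91801 and 94362 at G0. It was 64293 and 68815 at G8.5, and 101270, 92903 and 95866 at G14.5. Both G8.5 libraries were below every other library of the course. The change at G8.5 was -0.48 ± 0.11 (log2, SE; edgeR adjusted p = 0.00875), where 5.67% of genes tested were called. Here and below, SE is the size of the log2 change divided by the square root of its F in edgeR's test. It therefore restates that test and is no separate measure of spread. The call ended with each cell weighted equally (-0.54, adjusted p = 0.695), without G0 replicate 2 (-0.46, adjusted p = 0.0763) and without G8.5 replicate 1 (-0.44, adjusted p = 0.107). The highest group mean was at G5.5, with libraries at 96873 and 102360, which spread within those of G3.5 (105760 and 80495). Over the 16 stages Iapp varied with edgeR adjusted p = 0.0149 (F = 3.53). This call ended without G8.5 replicate 1 or 2 (F = 2.43 and 2.79) and with each cell weighted equally, so it rested on the G8.5 group.

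Pcsk1, the convertase that acts first on proinsulin, was 421 and 517 CPM at G0. Levels were 619 and 603 at G3.5, 524 and 496 at G5.5, and 730.04 and 938 at G6.5. They were 776 and 608 at G8.5, 661 and 536 at G10.5, and 717 and 838 at G12.5. All of these but 1 G5.5 library lay above the G0 pair. Later libraries had 765, 884 and 781 at G14.5, 609 and 905 at G16.5, and 653, 675 and 758 at G18.5. After birth the lactating groups had 625 and 791 at P2L, 671 and 802 at P7L, and 629.7, 594 and 689 at P14L. The nonlactating groups had 634 and 521 at P2NL, 494 and 541 at P7NL, and 390.5 and 496 at P14NL. The nonlactating libraries of days 7 and 14 were at or near the G0 levels, and the lactating ones lay above them without overlap on each of these days.

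Pcsk1 rose at 7 of the 15 stages compared with G0, all of which share the 2 G0 libraries, beside 3.36% of all genes outside insulin over the 15. The change was 0.83 ± 0.17 at G6.5 (log2, SE; edgeR adjusted p = 0.00888), where 1.63% of genes tested were called. It was 0.56 ± 0.17 at G8.5 (adjusted p = 0.04995; 5.67% called) and 0.73 ± 0.17 at G12.5 (adjusted p = 0.0100; 5.09% called). The G14.5 change was 0.79 ± 0.16 (adjusted p = 0.00138), where 10.1% of genes were called. At G16.5 it was 0.69 ± 0.17 (adjusted p = 0.0121; 7.22% called), at G18.5 0.57 ± 0.16 (adjusted p = 0.0322; 4.88% called) and at P7L 0.65 ± 0.17 (adjusted p = 0.0287; 3.35% called). Each of the 7 calls ended without G0 replicate 1, the lower of the pair, with adjusted p from 0.0561 at G14.5 to 0.290 at G8.5. At G14.5 the change without that library was 0.65, and no other omitted library ended the call. Without G16.5 replicate 2 the G16.5 change was 0.38 (adjusted p = 0.365). Calls also ended without G6.5 replicate 2 (0.129), G12.5 replicate 2 (0.128), G8.5 replicate 1 (0.388), G18.5 replicate 3 (0.132) and either P7L library (0.0531 and 0.328). Without G0 replicate 2 the G8.5 and G18.5 calls ended (adjusted p = 0.0737 and 0.0608). The G8.5 call also ended with another scaling (0.0623) and without cells rich in other hormones (0.0508), and those of G8.5, G16.5, G18.5 and P7L with each cell weighted equally (0.107, 0.0661, 0.0762 and 0.0940). Over all stages Pcsk1 varied with edgeR adjusted p = 0.000872.

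Lactating and nonlactating mothers were compared directly at each postpartum day. Pcsk1 was higher with lactation by 0.29 ± 0.17 on day 2 (log2, SE), 0.51 ± 0.17 on day 7 and 0.52 ± 0.16 on day 14. None passed the test (edgeR adjusted p = 1, 0.291 and 0.163; DESeq2 called day 14 at 0.0392), and 0.124%, 0.842% and 0.724% of genes did on the 3 days. Over the 7 genes, 0 of 28 tests of lactation and of G18.5 against G14.5 passed, with 3 at an unadjusted p under 0.05 and 1 by DESeq2, and 0.209% of genes outside insulin were called between G18.5 and G14.5.

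Pcsk2, the convertase that works mainly on intermediates already cut by PCSK1, was called lower at G16.5 alone. Its level was 5169.6 and 5322 CPM at G0, 4280 and 4316 at G6.5, 4448, 4697 and 4663 at G14.5, and 4209 and 4112 at G16.5. It was 5776 and 6155 at G5.5, 5863 and 6590 at P7L and 5901 and 6901 at P7NL. The G6.5, G14.5 and G16.5 libraries were all below the G0 pair, and those of G5.5 and of postpartum day 7 all above it. The G16.5 change was -0.33 ± 0.09 (log2, SE; edgeR adjusted p = 0.0227), and it ended without any 1 of the 4 libraries (adjusted p from 0.0673 without G0 replicate 1 to 0.144 without G0 replicate 2, with 0.0732 without G16.5 replicate 1 and 0.143 without replicate 2). It also ended without the filter on low counts (0.117) and with each cell weighted equally (0.167). At G14.5 it was -0.19 ± 0.08 (adjusted p = 0.163), and with another scaling -0.28 (0.0163). Over the 16 stages Pcsk2 varied with edgeR adjusted p = 4.985e-05. With Iapp and Pcsk1 it was 1 of 3 genes of the 7 called in that test, beside 17.6% of all genes outside insulin.

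The balance of the convertase transcripts was also read directly. Reads of Pcsk2 per read of Pcsk1 were 12.3 and 10.3 at G0, 5.86 and 4.60 at G6.5, and 5.82, 5.31 and 5.97 at G14.5. They were 7.70, 6.59 and 6.42 at G18.5 and 14.1 and 10.9 at P14NL. The G6.5, G14.5 and G18.5 ratios were all below the G0 pair and the P14NL pair overlapped it. The ratio carries no scaling between libraries, since both genes are read in the same cells.

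Cpe, whose product trims the ends that the convertases leave, was 3785 and 4365 CPM at G0 and 4188, 3828 and 4331 at G14.5. Its 35 libraries ran from 2762 to 4367. G12.5 had the lowest group mean, 3139, and G14.5 the highest, 4116. No stage was called by edgeR (0 of 15, with 5 at an unadjusted p under 0.05 and 2 by DESeq2). At G12.5, where the libraries had 2843 and 3434, another scaling gave -0.42 (edgeR adjusted p = 0.0344). Pam, the amidating enzyme, was 409 and 467 CPM at G0, 285 and 249.65 at G12.5, and 348, 337 and 534 at G14.5. Only its G12.5 change was called, at -0.71 ± 0.22 (log2, SE; edgeR adjusted p = 0.0493). It ended without any 1 of the 4 libraries (adjusted p = 0.0763 and 0.274 without G0 replicates 1 and 2, 0.125 and 0.295 without G12.5 replicates 1 and 2), with DESeq2 (0.0506), with each cell weighted equally (0.0716) and without cells rich in other hormones (0.0795). P7NL replicates of Pam stood at 312 and 599, far apart for libraries of 1 group.

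The step from G0 to G14.5 was measured in 10 pairs of groups with separate libraries, across genotypes and diets. How often the libraries of other genes separate in these pairs was not computed. Counts of pairs without overlap, here and below, are therefore descriptions. Pcsk1 was higher in all 10, by 0.43 to 1.09 (log2) with a median of 0.80, and its libraries did not overlap in 9 of 10. The exception was the high-fat-diet pair without genotype label, with 669 and 441 CPM at G0 and 667, 847 and 788 at G14.5. Of the 10 changes, 5 passed edgeR's test, where 3.59% of all genes outside insulin did over the 10 comparisons. Pcsk2 was lower in all 10, by 0.10 to 0.52 in size on the log2 scale, and its libraries did not overlap in 8, but only 1 change was called. Reads of Pcsk2 per read of Pcsk1 lay between 7.44 and 14.8 in the G0 libraries and between 3.59 and 7.58 in those of G14.5, and within each of the 10 pairs the G14.5 libraries were lower without overlap.

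**Figure D2:**
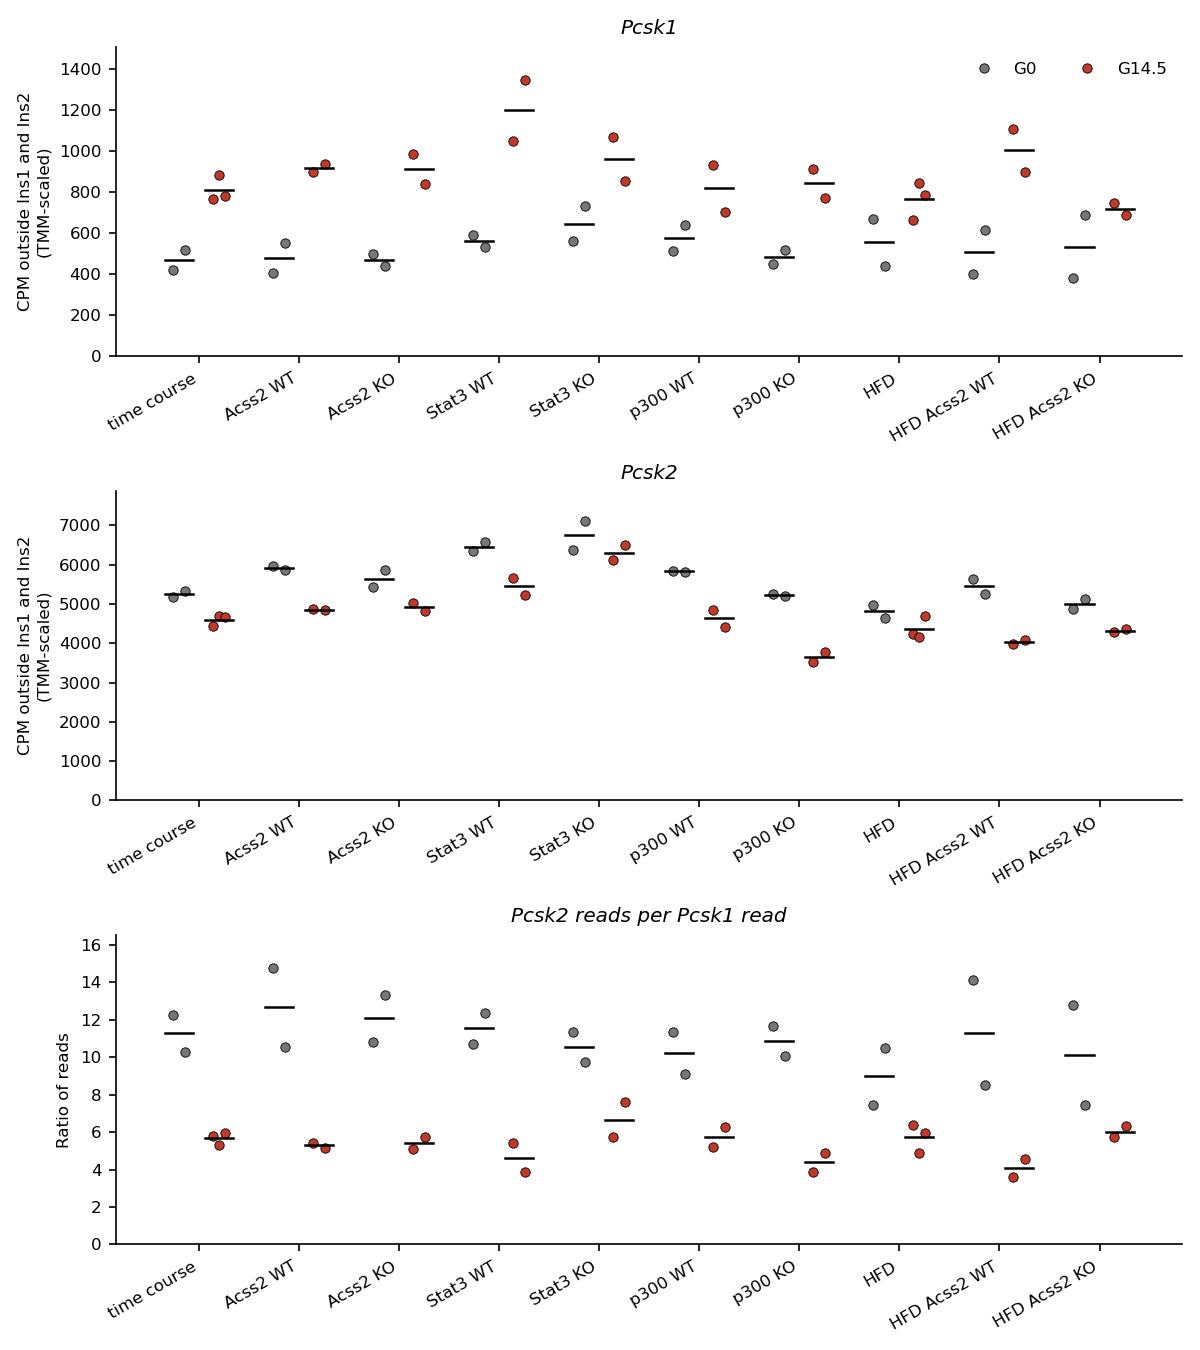
Pcsk1 and Pcsk2 in CPM outside Ins1 and Ins2, and Pcsk2 reads per Pcsk1 read, at G0 and G14.5 in the 10 pairs of groups; each point is a library (grey G0, red G14.5) and lines are group means. Pcsk1 is higher at G14.5 with no overlap in 9 pairs, and the ratio is lower at G14.5 with no overlap in all 10.

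Over the same 10 pairs the other 5 genes were less uniform. Iapp was called lower in 3, with changes from -1.13 to 0.17 (log2), and its libraries were lower without overlap in 6. Cpe was called lower in 1 and was lower without overlap in 7, with a median change of -0.23. Ins1 was called higher in 1 and Ins2 lower in 1, with medians of 0.16 and -0.07, beside 2.51% of all genes on the scale of all reads. The Ins1 share of insulin reads was higher at G14.5 without overlap in 6 pairs and overlapped in 4. Pam was called in 0 of 10 by edgeR (3 at an unadjusted p under 0.05, 0 by DESeq2), with changes from -0.58 to 0.39.

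The targeted transcripts were read first in the knockouts. Acss2 had 28.8 and 24.3 CPM in knockouts at G0 against 47.1 and 65.4 in wild types, and 43.1 and 46.4 against 62.7 and 97.5 at G14.5. Ep300 had 37.2 and 27.97 in p300 knockouts at G0 against 58.9 and 82.2. Stat3 had 175 and 125.7 in knockouts at G0 against 174 and 186. Acss2 and Ep300 were lower in every knockout library than in the wild types of the same stage, and Stat3 overlapped at G0. Reads outside a deleted part would still be counted, so these levels do not measure the deletion.

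With all libraries, no gene of the 7 was called by edgeR between a knockout and its wild type. Over 16 comparisons of genotypes or of their responses, 0 of the 7 genes passed in any, beside 0.238% of all genes on all reads and 0.127% outside insulin. At an unadjusted p under 0.05 there were 19 member tests, and DESeq2 called 8. DESeq2's were Ins1 (-0.55), Ins2 (-0.69), Pcsk1 (-0.48) and Pam (-0.68) in Acss2 knockouts at G18.5, Ins1 (-0.50) and Ins2 (-0.49) in p300 knockouts at G0, and Pam in Stat3 knockouts at G0 (0.96) and in their response at G18.5 (-1.18). DESeq2 used its own size factors, so its Ins1 and Ins2 changes are not on the scale of shares of all reads. EdgeR also made genotype calls with 1 library left out. Each such fit set 1 library of a group against 2 of the other, so only the changes are given. Without G18.5 Acss2 wild-type replicate 1, Ins2 (-0.38) and Pam (-0.99) were lower in knockouts at G18.5, and the Ins2 response at that stage differed by -0.42. The wild-type library left there, replicate 2, had the highest median insulin share of all libraries (69.5%, against 58.6% in replicate 1). Without G0 Stat3 knockout replicate 2, Pam was higher in knockouts at G0 (1.27). Without G0 p300 wild-type replicate 1, Ins1 (-0.31) and Ins2 (-0.25) were lower in knockouts at G0, and the Ins2 response at G14.5 differed by 0.35. Without the filter on low counts edgeR called Pam in Acss2 knockouts at G18.5 (-0.67, adjusted p = 0.00974), in Stat3 knockouts at G0 (0.97, 0.000479) and in their response at G18.5 (-1.18, 0.00529). In Stat3 knockouts at G0 the edgeR change with the filter was also 0.96, without a call. The lower adjusted p there reflects the spread which the unfiltered fit estimated and adds no support.

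In Acss2 wild types Pcsk1 went from 404 and 554 CPM at G0 to 897 and 937 at G14.5 and 822 and 973 at G18.5. The changes were 0.94 ± 0.17 (log2, SE; edgeR adjusted p = 0.00346; 2.95% of genes called) and 0.91 ± 0.17 (adjusted p = 0.00340; 6.95% called), measured against the same G0 libraries. Without G0 wild-type replicate 1 they were 0.72 (adjusted p = 0.0996) and 0.69 (adjusted p = 0.0869). In Acss2 knockouts Pcsk1 went from 500.2 and 440.3 to 989 and 842 at G14.5 and to 606 and 687 at G18.5. The G14.5 change was 0.96 ± 0.17 (adjusted p = 0.00267; 4.47% called) and ended without G0 knockout replicate 2 (adjusted p = 0.0772) or G14.5 knockout replicate 1 (0.0726). At G18.5 the change was 0.46 ± 0.16 (adjusted p = 0.220), and its difference from the wild-type change was -0.45 ± 0.23 (adjusted p = 0.656). The G18.5 knockout libraries were below both wild-type libraries of that stage, a difference that the test did not call.

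Iapp fell at G14.5 in both Acss2 genotypes. Wild types went from 89839 and 102250 to 79050 and 65683 (-0.41 ± 0.10, log2, SE; edgeR adjusted p = 0.0443), and knockouts from 98343 and 110300 to 76406 and 75567 (-0.46 ± 0.10; adjusted p = 0.0186). Neither pair of groups overlapped, and with each cell weighted equally both calls ended at -0.45 and -0.51 (0.826 and 0.755). The wild-type call ended without G0 replicate 2 (adjusted p = 0.261) or G14.5 replicate 2 (0.277) or the filter on low counts (0.0503), and the knockout call without any 1 of its 4 libraries (0.0535 to 0.270). Cpe went from 4539 and 4299 in G0 knockouts to 3286 and 3184 at G14.5 (-0.45 ± 0.12; adjusted p = 0.0358) and 2883 and 2916 at G18.5 (-0.61 ± 0.12; adjusted p = 0.00651; 2.51% of genes called). In wild types it went from 4265 and 4344 to 3445 and 2992 at G18.5 (-0.42 ± 0.12; adjusted p = 0.0375). All Cpe libraries of gestation lay below all those of G0 in both genotypes. The G18.5 knockout call ended without G0 knockout replicate 1 (adjusted p = 0.108) or 2 (0.0583), and the G14.5 knockout call without any 1 of 4 libraries (0.178 to 0.277). The wild-type call ended without G0 replicate 1 (0.157), G0 replicate 2 (0.144) or G18.5 replicate 2 (0.270). With each cell weighted equally the 3 Cpe calls ended (0.171 and 0.134 in knockouts at G14.5 and G18.5, 0.108 in wild types). Without the filter on low counts those of knockouts at G14.5 (0.0532) and of wild types (0.0643) ended.

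In Stat3 wild types Pcsk1 went from 591 and 532 CPM at G0 to 1049 and 1348 at G14.5, without overlap. The change was 1.09 ± 0.22 (log2, SE; edgeR adjusted p = 0.0141; 1.74% of genes called). It ended without G0 replicate 1 (adjusted p = 0.0710) or 2 (0.181), or G14.5 replicate 2 (0.170). Stat3 knockouts went from 563 and 731 to 1068 and 856 (0.57 ± 0.21; adjusted p = 0.240), and the responses differed by -0.52 ± 0.30 (adjusted p = 0.701). Pam had 898 and 558 in Stat3 knockouts at G0 and 394 and 352 at G18.5 (-0.96 ± 0.21; adjusted p = 0.0265; 1.48% called). Without G0 knockout replicate 1, the high library, the Pam change was -0.58 (adjusted p = 0.309), and the call also ended without G18.5 knockout replicate 1 (0.156) or 2 (0.268) and with each cell weighted equally (0.0559). At G0 these knockouts exceeded wild types (383 and 363) by 0.96 ± 0.21, which edgeR did not call (adjusted p = 0.146).

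In the p300 set 4 changes passed the test. Ins2 took 44.04% and 47.5% of reads in wild types at G0 and 40.6% and 36.65% at G14.5 (-0.25 ± 0.06, log2, SE; edgeR adjusted p = 0.0359; 3.29% of genes called). In p300 knockouts Ins2 was 39.9% in both G0 libraries and 40.5% and 41.9% at G14.5, and the difference of the responses was 0.29 ± 0.08 (adjusted p = 0.159). Ins1 went from 13.5% and 13.3% to 16.52% and 18.3% in knockouts (0.38 ± 0.08; adjusted p = 0.0269; 2.49% called). In these 3 pairs of groups the G0 and G14.5 libraries did not overlap. TMM scaling of all reads ended both insulin calls, with Ins2 at -0.45 (adjusted p = 0.113) and Ins1 at 0.53 (adjusted p = 0.0796). With each cell weighted equally both also ended (0.946 and 0.814), and without the filter on low counts Ins2 did (0.158). The Ins2 call also ended without G0 wild-type replicate 2 (0.0917) or G14.5 wild-type replicate 2 (0.165). The Ins1 call ended without G0 knockout replicate 1 (0.187) or 2 (0.211), or G14.5 knockout replicate 2 (0.134).

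In p300 knockouts both convertases were called at G14.5, in opposite directions. Pcsk1 went from 449 and 518 CPM to 912 and 774 (0.80 ± 0.18, log2, SE; edgeR adjusted p = 0.0306; 3.25% of genes called), and Pcsk2 from 5245 and 5215 to 3534 and 3776 (-0.52 ± 0.12; adjusted p = 0.0353). Wild types had 515 and 639 against 934 and 706 for Pcsk1 (0.51 ± 0.18; adjusted p = 0.170) and 5838 and 5820 against 4849 and 4418 for Pcsk2 (-0.33, adjusted p = 0.177). No pair overlapped. With each cell weighted equally the Pcsk2 call ended (-0.49, 0.212). Both knockout calls ended without any 1 of the 4 libraries, with adjusted p from 0.0754 to 0.258 for Pcsk1 and from 0.141 to 0.275 for Pcsk2.

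On high-fat diet the largest change of the 7 genes between stages was that of Iapp at G14.5 in the mice without a genotype label. Iapp was 118970 and 100540 CPM at G0, 42211, 73017 and 35728 at G14.5, and 117770 and 105310 at P7NL. All 3 G14.5 libraries lay below those of G0 and P7NL, and they differed widely among themselves. The G14.5 change from G0 was -1.13 ± 0.21 (log2, SE; edgeR adjusted p = 0.00825; 2.02% of genes called). P7NL exceeded G14.5 by 1.15 ± 0.21 (adjusted p = 0.00661; 1.32% called), a comparison that shares the G14.5 libraries. Without G0 replicate 1 or 2 the first call ended at -1.01 (adjusted p = 0.0810) and -1.24 (0.105), and without P7NL replicate 1 or 2 the second ended at 1.07 (0.116) and 1.23 (0.0567). With each cell weighted equally the changes were -1.09 and 1.14, and both calls ended (adjusted p = 0.643 and 0.716). Omitting any 1 G14.5 library kept the first call, with -1.02, -1.49 and -0.93 for replicates 1, 2 and 3.

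Markers of other islet cells were read in these libraries. Gcg and the pancreatic polypeptide markers were higher at G14.5 than at G0 without overlap, while summed α-cell and δ-cell markers overlapped between these stages. Gcg, the glucagon gene of α cells, had 2896 and 3815 CPM at G0, 4311, 5277 and 15254 at G14.5, and 240.05 and 206 at P7NL. Summed α-cell markers were 5328 and 6421, 5870 to 18464, and 4095 and 3530 in the same groups, and pancreatic polypeptide markers 541 and 773, 887 to 2248, and 319 and 243. Summed δ-cell markers were 401 and 493 at G0, 948, 364.5 and 767 at G14.5, and 199 and 280 at P7NL. In G14.5 replicates 1 and 2, where Iapp was 42211 and 73017, α-cell sums were 5870 and 7372 and pancreatic polypeptide sums 887 and 1664, the latter both above G0. Without cells over 5% in other hormones the Iapp change was -1.13 (edgeR adjusted p = 0.00783). β-cell markers other than the 7 genes summed to 10139 and 9664 at G0 and to 9318, 11260 and 10410 at G14.5, and these overlapped.

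**Figure D3:**
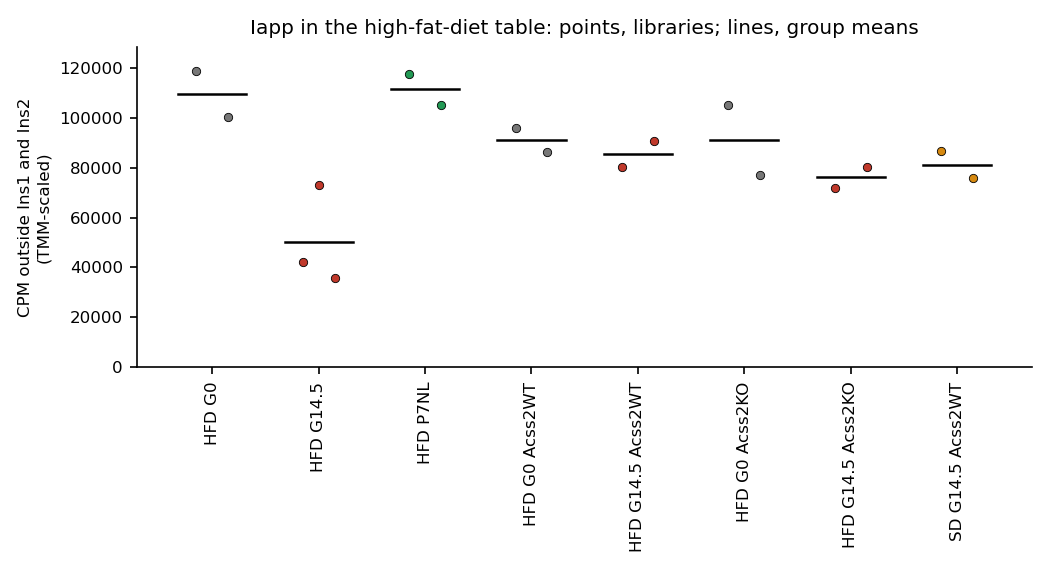
Iapp in CPM outside Ins1 and Ins2 in the 17 libraries of the diet table; points are libraries and lines group means. The 3 high-fat-diet G14.5 libraries without genotype label (35728 to 73017) are below the G0 and P7NL libraries of the same label, and the Acss2 groups lie between 71782 and 105280.

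The high-fat-diet Acss2 mice did not show an Iapp change of that size. Wild types had 96114 and 86238 at G0 and 80334 and 90623 at G14.5 (-0.09 ± 0.23, log2, SE; edgeR adjusted p = 0.911), and knockouts 105280 and 77128 against 71782 and 80409 (-0.26, adjusted p = 0.580). The difference between the change in unlabelled mice and that in Acss2 wild types was -1.03 ± 0.31 (p = 0.00376 in edgeR's test, adjusted p = 0.486). This comparison was added after the values were seen. Pcsk1 in high-fat-diet wild types went from 400.2 and 618 to 1109 and 898 (0.98 ± 0.25; adjusted p = 0.0502). Pam was 533 and 617 in standard-diet Acss2 wild types at G14.5 and 256 and 245 in those on high-fat diet (-1.20 ± 0.19; adjusted p = 0.0266; 0.347% of genes called). The Pam libraries did not overlap, and the call ended without high-fat-diet replicate 1 (0.125) or 2 (0.187) or standard-diet replicate 2 (0.280).

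In the A485 set of cultured islets, the drug lowered Ins1 and Iapp under either serum, and with vehicle maternal serum lowered Ins2 and raised Pcsk1. With all libraries, edgeR called neither serum change in the nifuroxazide set. Ins1 took 15.9% and 16.04% of reads in normal serum with vehicle and 9.33% and 9.92% with A485 (-0.73 ± 0.09, log2, SE; edgeR adjusted p = 0.00154; 23.8% of genes called). In maternal serum it took 17.15% and 14.9% with vehicle and 10.8% and 9.67% with A485 (-0.65 ± 0.09; adjusted p = 0.00134; 15.7% called). All A485 libraries lay below all vehicle libraries. Ins2 was 45.3% and 43.9% against 38.75% and 39.7% with A485 in normal serum (-0.19, adjusted p = 0.145), and 34.04% and 26.8% against 24.7% and 26.65% in maternal serum (-0.24, adjusted p = 0.0781). These changes moved the Ins1 share of insulin reads from 25.98% and 26.8% to 19.4% and 19.997% in normal serum.

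Iapp fell with A485 as well. It went from 109940 and 139370 CPM to 60641 and 74477 in normal serum (-0.88 ± 0.13, log2, SE; edgeR adjusted p = 0.00657; 2.34% of genes called). In maternal serum it went from 142280 and 153580 to 69136 and 85840 (-0.93 ± 0.13; adjusted p = 0.00336; 3.33% called). The A485 libraries did not overlap the vehicle libraries under either serum. Ins1 under both sera and Iapp in maternal serum kept their calls without any 1 library. Iapp in normal serum ended without NS A485 replicate 1 (-0.74, adjusted p = 0.123). With each cell weighted equally all 4 changes kept their size (Ins1 -0.73 and -0.67, Iapp -0.73 and -0.79 in normal and maternal serum), and their calls ended (adjusted p = 0.575, 0.622, 0.174 and 0.138). Pcsk1 with A485 in normal serum, at 539 and 607 against 543 and 594, overlapped between drug and vehicle. Of Pcsk1, Pcsk2, Cpe and Pam, edgeR called 0 of 8 changes with A485 (2 at an unadjusted p under 0.05), and DESeq2 called Pcsk2 under both sera (-0.36 and -0.35). Responses to A485 or nifuroxazide differed between sera in 0 of 14 member tests (2 at an unadjusted p under 0.05, 0 by DESeq2), where 0.0074% of all genes on all reads and 0.0% outside insulin were called. The difference for Ins1 and A485 was 0.08 ± 0.12.

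The RefSeq windows before the starts of Ins1 and Iapp are shown because both genes fell with A485. Each is 240 bases of GRCm38.p6 on the plus strand, ending before the transcript start. Capitals mark 2 motifs searched on both strands, TAAT (so also ATTA), the core that many homeodomain factors bind, and CATCTG (so also its reverse complement), an E-box.
Ins1 chr19:52264047-52264286: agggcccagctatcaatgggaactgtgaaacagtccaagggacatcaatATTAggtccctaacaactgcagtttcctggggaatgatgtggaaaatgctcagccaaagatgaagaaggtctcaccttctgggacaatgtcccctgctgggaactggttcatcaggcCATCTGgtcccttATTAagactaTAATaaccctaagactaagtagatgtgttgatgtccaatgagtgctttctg
Iapp chr6:142298175-142298414: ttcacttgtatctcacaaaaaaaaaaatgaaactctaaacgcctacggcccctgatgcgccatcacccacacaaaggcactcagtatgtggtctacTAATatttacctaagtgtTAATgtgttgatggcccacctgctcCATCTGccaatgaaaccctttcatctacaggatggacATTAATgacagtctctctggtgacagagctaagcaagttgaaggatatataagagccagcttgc
The Ins1 window held 3 TAAT matches and the Iapp window 4, of which 2 overlap, and each held 1 CATCTG. Of 32851 promoter windows of the same length, 54.2% held TAAT and 14.1% held CATCTG. Of the 7 genes, 5 had an entry in the promoter table.

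Maternal serum was compared with normal serum within each drug setting. Ins2 was lower in maternal serum with vehicle by -0.55 ± 0.09 (log2, SE; edgeR adjusted p = 0.00574; 6.04% of genes called) and with A485 by -0.61 ± 0.09 (adjusted p = 0.00450; 0.694% called). Its maternal-serum libraries all lay below its normal-serum libraries. Without NS vehicle replicate 1 the vehicle call ended (-0.53, adjusted p = 0.0648). With each cell weighted equally both calls ended at -0.54 and -0.59 (0.887 and 0.908). The A485 call ended without MS A485 replicate 1 (0.0721) or NS A485 replicate 1 (0.115) or 2 (0.213). Pcsk1 was 543 and 594 CPM in normal serum and 1213 and 1051 in maternal serum with vehicle (0.99 ± 0.15; adjusted p = 0.0125; 0.695% called), with no overlap. With A485 it was 539 and 607 against 850.1 and 1112 (0.78 ± 0.15; adjusted p = 0.0660). The vehicle call ended without NS vehicle replicate 1 (0.92, adjusted p = 0.119) or 2 (1.07, adjusted p = 0.0524). Reads of Pcsk2 per read of Pcsk1 were 10.9 and 12.2 in normal and 5.15 and 5.87 in maternal serum. In the nifuroxazide set the same comparison with vehicle gave -0.11 ± 0.20 for Pcsk1 (adjusted p = 0.942), whose libraries overlapped. Ins2 there took 34.2% and 35.2% in normal serum and 24.95% and 30.8% in maternal serum (-0.32 ± 0.11; adjusted p = 0.207). Without MS vehicle replicate 1, which left 1 library in that group, the Ins2 change was -0.48. Without the filter on low counts it was again -0.32 and called (edgeR adjusted p = 0.00832), which reflects the spread that fit estimated. With nifuroxazide the serum changes were 0.40 for Pcsk1 (adjusted p = 0.535) and -0.18 for Ins2 (0.667). Whether the serum changes differ between the sets was not tested.

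The NS vehicle libraries of the A485 set also carried more δ-cell transcripts than its other libraries. Sst, the somatostatin gene, had 6204 and 1123 CPM there and between 9.42 and 181 in the other 6 libraries. Whether these reads bear on the changes from those libraries was not tested beyond the omission of cells rich in other hormones. On the scale of all reads, without TMM, the median gene changed by 0.54 (log2) with A485 in normal serum and 0.43 in maternal serum. It changed by 0.36 and 0.25 for the serum comparisons with vehicle and A485. Under TMM scaling of all reads the Ins1 changes with A485 were -1.29 and -1.11 (edgeR adjusted p = 0.000214 and 0.000469), and the Ins2 changes became calls at -0.74 and -0.71 (0.0179 and 0.0170). The Ins2 changes with serum were then -0.88 (0.0141) with vehicle and -0.84 (0.0216) with A485.

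In the nifuroxazide set Pcsk1, Pcsk2, Cpe and Ins1 were called lower with the drug in normal serum, and Pcsk2 and Cpe also in maternal serum with vehicle. Cpe was 7194 and 7451 CPM in normal serum with vehicle and 4121 and 4077 with nifuroxazide (-0.84 ± 0.09, log2, SE; edgeR adjusted p = 0.000353; 1.99% of genes called). It was 3929 and 4124 in maternal serum with vehicle (-0.86 ± 0.09 against normal serum; adjusted p = 0.000333; 0.988% called). Both comparisons share the NS vehicle libraries, which were far above the rest. Both calls held in all 10 alternatives, but none of these left out both NS vehicle libraries. In normal serum with vehicle the means of this set were 7322 for Cpe, 7908 for Pcsk2 and 917 for Pcsk1. Under the same serum and vehicle the A485 set, scaled on its own, had means of 4483.5, 6596 and 569. The difference between these control groups was not tested. Pcsk2 was 8296 and 7521 in those libraries, 4796 and 5297 with nifuroxazide (-0.65 ± 0.10; adjusted p = 0.00394) and 5445 and 5129 in maternal serum with vehicle (-0.58 ± 0.10; adjusted p = 0.0104). Again the NS vehicle pair was above every other library. Both ended with each cell weighted equally (-0.48 and -0.47, adjusted p = 0.158 and 0.248). The drug call ended without NS nifuroxazide replicate 1 (0.0684), and the serum call without MS vehicle replicate 2 (0.0534) or NS vehicle replicate 1 (0.120).

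Pcsk1 fell with nifuroxazide in normal serum, from 1088 and 746 CPM to 340 and 361 (-1.39 ± 0.20, log2, SE; edgeR adjusted p = 0.00261). In maternal serum it was 925 and 773 with vehicle and 384 and 541 with the drug (-0.88 ± 0.20; adjusted p = 0.0711). The drug libraries were below the vehicle libraries under both sera. The call in normal serum held in all alternatives. Pam was 784.5 and 630.3 in normal serum and 354 and 477 with the drug (-0.77, adjusted p = 0.0677), and 462 and 497 against 213 and 298 in maternal serum (-0.91, adjusted p = 0.0561). Reads of Pcsk2 per read of Pcsk1 were 7.62 and 10.1 with vehicle and 14.1 and 14.7 with the drug in normal serum, the opposite direction to gestation. The response to the drug differed between sera by 0.55 ± 0.13 for Cpe (adjusted p = 0.284) and 0.43 ± 0.14 for Pcsk2 (adjusted p = 0.591), neither of which was called.

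**Figure D4:**
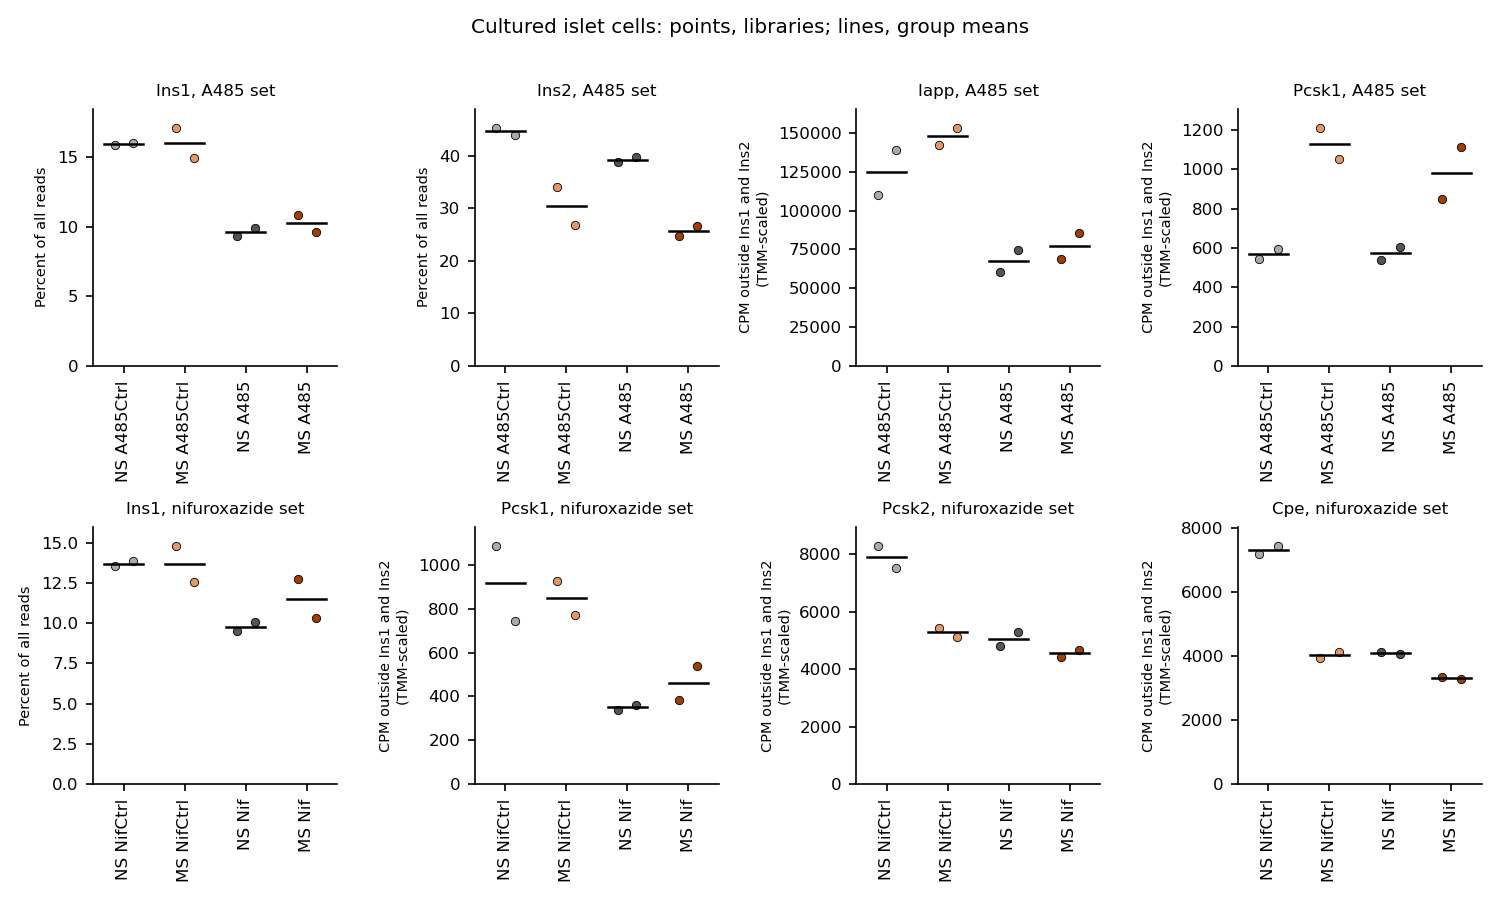
Cultured islets by serum (NS normal, MS maternal) and drug. Upper panels give the A485 set (Ins1 and Ins2 in percent of all reads, Iapp and Pcsk1 in CPM outside Ins1 and Ins2), lower panels the nifuroxazide set (Ins1, Pcsk1, Pcsk2 and Cpe); points are libraries, lines are group means and Ctrl marks the vehicle. Ins1 and Iapp are lower with A485 under either serum, and the NS vehicle libraries of the nifuroxazide set are highest in Cpe (7194 and 7451) and Pcsk2.

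Among the hormones of this set, Ins1 took 13.5% and 13.9% of reads in normal serum and 9.49% and 10.1% with nifuroxazide (-0.49 ± 0.11, log2, SE; edgeR adjusted p = 0.0258; 5.09% of genes called). The pairs did not overlap, and the call ended without any 1 of the 4 libraries (adjusted p from 0.118 to 0.170) and with each cell weighted equally (0.750). On all reads without TMM the median gene changed by 0.36, and TMM scaling gave -0.87 for Ins1 (edgeR adjusted p = 0.00756). Ins2 was 34.2% and 35.2% against 28.4% in both drug libraries (-0.29, adjusted p = 0.116), and with TMM -0.68 (0.0308). Iapp was 147920 and 90294 against 79245 and 66491 (-0.71, adjusted p = 0.0810). Without NS vehicle replicate 2, which left 1 library in that group, the Iapp change was -1.04. Without the filter on low counts it was -0.72 and called (edgeR adjusted p = 5.648e-26). That change is nearly the one with the filter, so the lower adjusted p reflects the spread which the unfiltered fit estimated and adds no support. The NS vehicle libraries also had higher sums of α-cell markers, 8544 and 4714 CPM against 1414 to 2763 elsewhere in the set, while Gcg itself was 190.5 and 451 there and 145.85 to 579.9 elsewhere. β-cell markers other than the 7 genes summed to 7964 and 7320 in them, 6938 and 7083 in maternal serum with vehicle and 4937 and 5038 with the drug in normal serum. The part of these markers in the enzyme changes was not tested.

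Genes that work beside these members were read in 4 lists. At G14.5 in the time course, partners of the processing enzymes had 0 of 13 tested genes higher and 7 lower (median -0.47 log2, all genes 0.00). Pcsk1n, which encodes the PCSK1 inhibitor proSAAS, changed by -0.93 ± 0.14 (log2, SE; edgeR adjusted p = 2.7244e-05), from 1990 and 1996 CPM to 765, 1144 and 1028. Its G14.5 libraries were all below the G0 pair, while Pcsk1 was above its own. Ctsl, a lysosomal protease, changed by -0.53 (adjusted p = 0.00178), Pcsk4 by -1.20 (0.00665) and Scg5, the PCSK2 chaperone 7B2, by -0.44 (0.0147). Genes of entry into the endoplasmic reticulum and folding had 18 of 23 higher and 0 lower (median 0.77), among them the chaperone cofactor Dnajc3 (0.99), the chaperone Hsp90b1 (0.91) and the signal peptidase subunits Spcs3 (0.74) and Spcs1 (1.05). Granule cargo genes split, with 3 of 16 higher and 2 lower (median -0.06): Chgb rose by 2.43, Vgf by 1.57 and Rab2a by 0.48, and Scg2 (-0.48) and Chga (-0.49) fell. Of 14 regulators of the insulin genes, Elavl4 (0.80) and Isl1 (0.68) rose and Mlxipl (-1.47) fell.

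Calls of the lists in other comparisons are given beside the share of all genes outside insulin that was called, which was 10.1% for the time course at G14.5. In Acss2 wild types at G14.5, where 2.95% were called, the partners had 0 of 12 higher, Pcsk1n was among those lower (-0.67, log2), and the folding list had 3 of 23 higher. In Acss2 knockouts (4.47% of genes called) edgeR called 0 of 12 partners (1 at an unadjusted p under 0.05) and 8 of 23 folding genes, the latter all higher. In high-fat-diet mice without a genotype label (2.02% called) edgeR called 0 of 12 partners (5 at an unadjusted p under 0.05), and Ssr2 (1.29) and Spcs2 (0.82) were the 2 folding genes called higher. Chgb was 1.98 higher there. A485 gave lower calls for 4 of 23 folding genes in normal serum (2.34% of genes called) and 6 in maternal serum (3.33%), led by Ero1lb, an oxidase of proinsulin folding (-1.49 and -1.65). Nifuroxazide in normal serum (1.99% called) lowered Scg5 by -1.06 and 4 of 16 granule genes, namely Slc30a8, the granule zinc transporter (-1.19), Chgb (-1.14), Scg2 (-0.83) and Chga (-0.59), beside Cpe and both convertases.

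The genes whose stage means lay closest to each member were found by Pearson's r of log2 levels over the 16 group means, which share libraries and depth. For Pcsk1 these were Prlr, the prolactin receptor (r = 0.919), Sec22a (0.916) and Edf1 (0.909). Iapp was closest to St18 (0.909), Mysm1 (0.903) and Fmn2 (0.878), and Pcsk2 to Sipa1l3 (0.914), Mtch1 (0.878) and Rnf220 (0.871). Cpe was closest to the granule gene Scg3 (0.874), Yod1 (0.866) and Foxa2 (0.858), and Pam to Trappc11 (0.855), Dhx9 (0.778) and 2610001J05Rik (0.776). The insulin genes had weaker neighbours, Fuom (0.730), Pspc1 (0.643) and Crip1 (0.600) for Ins1 and Capza1 (0.641), Gc (0.448) and Zfp938 (0.437) for Ins2. These values are the highest of 7212 genes for the insulin genes and 9209 for the others, and they are descriptions.

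Nearly every cell carried all 7 transcripts. No cell lacked reads of Ins1, Ins2, Iapp, Pcsk2, Cpe or Pam, and 1 of 7897 (0.0127%) lacked Pcsk1. Insulin reads were under 20% of the total in 27 cells (0.342%), and the library medians of the insulin share ran from 32.6% to 69.5%. Within libraries the enzymes tended to run together across cells, with a median rank correlation of 0.30 between Pcsk1 and Cpe, 0.28 between Pcsk2 and Cpe and 0.25 between Cpe and Pam, each above 0 in 97 of 100 libraries. Ins1 and Ins2 had a median of 0.11, above 0 in 67 libraries. Cells share their library and differ in depth: Pcsk1 had a median rank correlation of 0.25 with a cell's reads and Ins2 of -0.35. Such correlations describe these cells and carry no test.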

How the data were processed

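Read counts per gene and cell were deposited by the authors in 7 tables as raw counts, 1 column per cell, with gene length as a further column. The genome build was GRCm38 (mm10), and the tools named were featureCounts 2.0.1, Trimmomatic 0.39 and Cell Ranger 3.1.0, per the submitters' processing notes. No aligner or strand setting is named in the sources. The 2 samples made with droplets were not analysed here. There were 12791 genes for Stat3, 21176 for p300 and 21767 in the other tables.

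Reads were summed per group and replicate number, since cells are not replicates. For each table, edgeR 4.0.16 quasi-likelihood fits covered all its groups, 1 on all reads without further scaling (Ins1, Ins2) and 1 on reads outside them with TMM (the other genes), after edgeR's filter on low counts. P-values were Benjamini-Hochberg adjusted over all genes tested and called at 0.05, in 64 comparisons. On simulated data for G14.5 against G0 in Acss2 wild types (13566 genes), every gene was given a dispersion of 0.05. There 24% of 50 genes changed 2-fold and 78.7% of 47 changed 3-fold were recovered. Recovery at the spread of the members themselves was not computed. Alternatives used DESeq2 1.42.0, limma 3.58.1 and R 4.3.3. DESeq2 kept its default size factors in both fits, so its Ins1 and Ins2 results are not on the scale of shares of all reads. Sums and figures used Python 3.11.15.

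The members and lists were chosen with earlier results of these data known. All members were named in every comparison, with the targeted genes, the 3 genes most like each member (mean of at least 10 CPM) and up to 4 called genes of a list by lowest adjusted p. A gene of the background lists is counted but not reported by name here.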

Additional observations from a re-analysis of the deposited data

How the results depend on the processing

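No change of a member reversed under any alternative. Among the 15 stages against G0 and the other comparisons of the time course, 10 member changes were called, 3 with each cell weighted equally (limma, pseudocount 1), and 1 to 11 when 1 library was left out. For the test over 16 stages 3 members were called, 5 without the filter on low counts and 2 to 5 with a library left out. The Acss2 table had 8 calls, 14 with DESeq2, 3 with equal cell weights and 2 to 15 with a library left out. The Stat3 table had 2, with 5 without the filter, 7 with DESeq2, 1 with equal cell weights and 1 to 4 with a library left out. The p300 table had 4, with 2 under the other scaling, 7 with DESeq2, 1 with equal cell weights and 0 to 8 with a library left out. The diet table had 3, with 7 without the filter, 10 with DESeq2 and 2 to 5 with a library left out. The A485 set had 7, with 12 under DESeq2, 1 with equal cell weights and 5 to 10 with a library left out. The nifuroxazide set had 6, with 17 without the filter, 11 with DESeq2 and 4 to 9 with a library left out. The cause of these differences was not tested.

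Replicate numbers did not pair the samples: deviations of same-numbered libraries correlated with a median between -0.036 and 0.036 per table. With the replicate block the calls were 8 in the time course, 4 over the 16 stages, 7 for Acss2, 2 for Stat3, 3 for p300, 3 for diet, 10 for A485 and 8 for nifuroxazide. The block ended 4 member calls: Pam at G12.5 (edgeR adjusted p = 0.0505), Pcsk1 at G18.5 (0.0545), Iapp at G14.5 in Acss2 wild types (0.0507) and Pcsk2 at G14.5 in p300 knockouts (0.0529). It gave 5 others, all in the cultures. With 2 libraries in most groups, 2.04% of simulated 1.5-fold changes between Acss2 wild types at G14.5 and G0 were recovered at a simulated dispersion of 0.05. Recovery of changes of that size was therefore low in that simulation, while smaller changes of some members were called, such as Iapp in the same comparison (-0.41, log2).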
